A study of Mus musculus and Rattus norvegicus with 32 samples.

Results

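The lysosomal cathepsins were followed as 8 genes, Ctsb, Ctsc, Ctsd, Ctsh, Ctsl, Ctss, Ctsk and Ctsz, taken by symbol from the annotation of the arrays. On the mouse array 13 probe sets carried 1 of these symbols, out of 12422 probe sets that were not controls. On the rat array 10 of 8740 probe sets did so, for 7 of the genes, since no rat probe set was annotated to Ctsz. The study set out to compare how mouse and rat liver respond to trichloroethylene (TCE), a chlorinated solvent. Male B6C3F1 mice and male SD rats were gavaged with TCE at 1500 mg/kg in corn oil, or with the oil only. Dosing was single, in animals of 8 weeks of age, or once daily for 14 days, in animals of 10 weeks of age. Liver was collected 18 h later, and the 32 arrays formed 8 groups of 4. Every group, controls included, thus received corn oil by gavage, and the repeated-dose groups were older than the single-dose groups.

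Cathepsins are the proteases that degrade proteins delivered to the lysosome by endocytosis and autophagy. Most are cysteine proteases of the papain family, made as inactive precursors, sorted to the lysosome by the mannose 6-phosphate receptors and held in check by cystatins, whereas cathepsin D is an aspartic protease. In liver both hepatocytes and Kupffer cells, the resident macrophages, hold many lysosomes, so that cathepsin RNA in whole liver comes from several cell types.

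Each deposited value had been divided by a median, that of the 4 oil arrays belonging to its species and schedule. A ratio of 1 therefore stands for the oil median, and the values hold no expression level: neither the order of the 8 genes by abundance, nor the presence of hepatocyte markers, nor the distance from background signal can be read from them. Differences between groups were tested with limma on log2 ratios, with p-values adjusted by the Benjamini-Hochberg method over all probe sets, and a probe set was called at an adjusted p under 0.05. The labels do not say that the 4 arrays of a group came from separate animals, so these p-values reflect only how far these samples spread, which may be technical. In bulk liver, fewer cells of a type and less RNA per cell cannot be told apart.

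The Gapdh control, a measure of RNA quality, differed between the groups. On 10 of the 32 arrays, 9 of them among the 16 TCE arrays, the Gapdh control probes at the 3′ end of the transcript exceeded those at the 5′ end by more than 1 on the log2 scale, relative to the oil arrays. In mouse liver these were TCE arrays 1, 3 and 4 after a single dose, and TCE arrays 2, 3 and 4 and oil array 1 after repeated doses. In rat liver they were TCE array 4 after a single dose and TCE arrays 3 and 4 after repeated doses. The actin control did not show the loss on all of these arrays. Its 3′ minus 5′ log2 value was 0.28 on mouse repeated-dose oil array 1 and -0.12 on rat repeated-dose TCE array 4. On the others it lay between 0.48 and 1.90. Each result on the 8 genes was refitted with the Gapdh control as a covariate, and those values are given beside the results they change. The other gene lists were not refitted in this way.

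The arrays also differed in genes of the exocrine pancreas, which liver does not normally express. On 5 arrays the mean log2 ratio of these genes, 6 in mouse and 11 in rat, stood far above the rest. It was 2.88 on mouse single-dose oil array 3, 3.08 and 3.91 on single-dose TCE arrays 3 and 4, 2.11 on repeated-dose TCE array 1 and 5.11 on rat single-dose oil array 3. All other arrays lay between -1.56 and 0.45. The results on the 8 genes were refitted without these 5 arrays, a choice made after seeing the data. Of the calls described below, those of Ctsc and Ctsz in mouse after repeated doses, and of Ctsc and Ctsl between the species, were kept.

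Of the 8 genes, 6 had a mouse window among the RefSeq promoter sequences (build GRCm38.p6), read here over the 250 bases before the annotated start of the gene. Ctsb and Ctsh were the others. Windows are shown for Ctsd and Ctsl, which held an E-box, and for Ctsc and Ctsz. Ctsc and Ctsz each had a probe set called lower in mouse liver after repeated doses. The windows of Ctsc, Ctsz, Ctsk and Ctss held no E-box, and a link between the E-box and the RNA changes was not tested. The E-box CACGTG is the core of the element that TFEB, the transcription factor known for lysosomal genes, binds. Each window is written 5′ to 3′ on the strand of the gene, and capitals mark CACGTG or its extended form TCACGTGA. The regions are chr7:142387828-142388077 on the minus strand for Ctsd, chr13:64370521-64370770 on the minus strand for Ctsl, chr7:88277835-88278084 on the plus strand for Ctsc and chr2:174439040-174439289 on the minus strand for Ctsz.
Ctsd: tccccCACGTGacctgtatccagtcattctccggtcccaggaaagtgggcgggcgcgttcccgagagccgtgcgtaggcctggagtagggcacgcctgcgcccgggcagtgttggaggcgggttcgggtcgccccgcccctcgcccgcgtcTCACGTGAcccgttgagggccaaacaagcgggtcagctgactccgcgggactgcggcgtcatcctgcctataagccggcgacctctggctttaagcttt
Ctsl: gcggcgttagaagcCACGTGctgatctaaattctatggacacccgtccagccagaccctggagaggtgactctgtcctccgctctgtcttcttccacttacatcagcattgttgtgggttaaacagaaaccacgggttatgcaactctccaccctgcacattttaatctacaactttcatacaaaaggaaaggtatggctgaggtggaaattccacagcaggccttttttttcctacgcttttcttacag
Ctsc: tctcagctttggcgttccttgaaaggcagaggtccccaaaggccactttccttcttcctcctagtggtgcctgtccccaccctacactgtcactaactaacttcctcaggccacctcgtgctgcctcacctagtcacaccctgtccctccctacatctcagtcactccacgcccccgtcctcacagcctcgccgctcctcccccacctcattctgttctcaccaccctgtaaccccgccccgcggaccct
Ctsz: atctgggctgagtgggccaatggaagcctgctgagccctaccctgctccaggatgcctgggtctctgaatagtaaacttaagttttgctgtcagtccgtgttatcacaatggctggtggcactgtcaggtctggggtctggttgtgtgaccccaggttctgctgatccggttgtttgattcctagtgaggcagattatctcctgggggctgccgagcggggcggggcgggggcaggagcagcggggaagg

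The Ctsd window held 2 E-boxes, whose first bases lie 98 and 245 bases before the start, and the nearer one is part of the extended form. The Ctsl window held 1 E-box, 236 bases before the start. CACGTG, which reads the same on both strands, occurred in 6.02% of all 32841 mouse windows, and TCACGTGA, which contains it, in 0.786%. The core of the interferon-stimulated response element was also searched, on both strands, and occurred in 2.98% of windows. The Ctss window held it once, as GAAACCGAAA, 21 bases before the start, and the Ctsk window held none of these motifs. A match describes the letters only, and binding was not measured.

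In mouse liver after a single dose of TCE, Ctsl was higher and Ctsz lower than in corn oil controls, and the other 6 cathepsins did not pass the test. These were 2 of the 13 member probe sets, where 8.30% of all mouse probe sets were called, 4.16% higher and 4.14% lower. The median log2 change of the member probe sets was -0.11, beside -0.09 for all probe sets, and 5 lay above 0 and 8 below.

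Ctsl encodes cathepsin L, an endopeptidase of the lysosome. Its ratios on the 4 TCE arrays were 1.455, 1.327, 1.461 and 1.416, and on the 4 oil arrays 1.006, 0.994, 0.802 and 1.045. All 4 TCE arrays lay above all 4 oil arrays, which held for 7.96% of all mouse probe sets. The log2 change was 0.56 ± 0.15 (SE), a ratio of 1.48, with an adjusted p of 0.0364 by limma. With the Gapdh value as a covariate it was 0.40 (adjusted p = 0.302 by limma). Leaving out any of 7 of the 8 arrays ended the call, with adjusted p up to 0.111, and TCE array 2 was the exception. Without the arrays high in pancreas genes, which leaves 2 TCE and 3 oil arrays, the change in Ctsl was 0.45 (adjusted p = 0.334).

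Ctsz encodes cathepsin Z, a carboxypeptidase that trims proteins from their C-terminal end. The TCE arrays read 0.494, 0.782, 0.578 and 0.46, and the oil arrays 0.899, 1.084, 0.916 and 1.149. All TCE arrays lay below all oil arrays, as on Ctsb 94831_at and on 9.62% of all mouse probe sets. The highest of them, array 2, was the one without the Gapdh 5′ loss. TCE changed Ctsz by -0.83 ± 0.21 (SE) on the log2 scale, a ratio of 0.562, with an adjusted p of 0.0268 by limma. It was -0.34 with the Gapdh value as a covariate (adjusted p = 0.351 by limma), and the part of RNA quality in the result was not tested. Leaving out any of 6 of the 8 arrays ended the call, with adjusted p up to 0.0838. The exceptions were oil array 1 and TCE array 2. Without the arrays high in pancreas genes Ctsz changed by -0.74 (adjusted p = 0.214).

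Ctsd (93810_at), the aspartic protease, was not called, and its TCE group was uneven. Its TCE ratios were 0.656, 1.403, 0.614 and 0.644, and its oil ratios 0.926, 1.019, 0.981 and 1.168. The 3 arrays with the Gapdh 5′ loss lay below every oil array, while array 2, without it, lay above every oil array. The log2 change was -0.39 ± 0.30 (SE, adjusted p = 0.47 by limma), and with the Gapdh value as a covariate 0.45 (adjusted p = 0.164). Without TCE array 2 it was -0.68 (adjusted p = 0.135), and without the arrays high in pancreas genes -0.11 (adjusted p = 0.916).

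Ctsb, the cathepsin B gene, was measured by 4 mouse probe sets, which did not move together after a single dose. On 94831_at the TCE ratios were 0.787, 0.811, 0.674 and 0.837 against 0.979, 1.021, 1.066 and 0.966 in oil, with no overlap, yet the log2 change of -0.38 ± 0.14 (SE) had an adjusted p of 0.111 by limma. On 162271_f_at, whose suffix marks probes that can bind a family of sequences, TCE arrays 1 to 3 read 0.229, 0.198 and 0.29 and array 4 read 1.46. Without that array the log2 change went from -1.21 (adjusted p = 0.164) to -1.86 (adjusted p = 0.00855 by limma), and without the arrays high in pancreas genes, of which it is 1, it was also -1.86 (adjusted p = 0.0492). The other 2 Ctsb probe sets had log2 changes of 0.29 (92256_at) and -0.23 (95608_at), neither of them called.

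Ctsc on 101019_at read 0.778, 0.698, 0.876 and 0.875 on the single-dose TCE arrays and 0.953, 0.797, 1.047 and 1.404 on the oil arrays, which overlapped. The change was -0.36 ± 0.22 (SE, adjusted p = 0.346 by limma), and it was 0.01 ± 0.25 on 101020_at and 0.48 ± 0.60 on 161251_f_at. Of the remaining mouse members, Ctsh, an aminopeptidase, changed by -0.11 ± 0.14 (SE) on the log2 scale, Ctsk, the collagen-degrading protease of osteoclasts, by 0.02 ± 0.29, and Ctss, which cleaves the invariant chain of class II molecules in antigen-presenting cells, by -0.03 ± 0.22. The 95% confidence interval was -0.41 to 0.20 for Ctsh, -0.61 to 0.65 for Ctsk and -0.49 to 0.44 for Ctss. None of these was called by limma, Ctsc included, and the 3 intervals include changes of either sign.

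**Figure D1:**
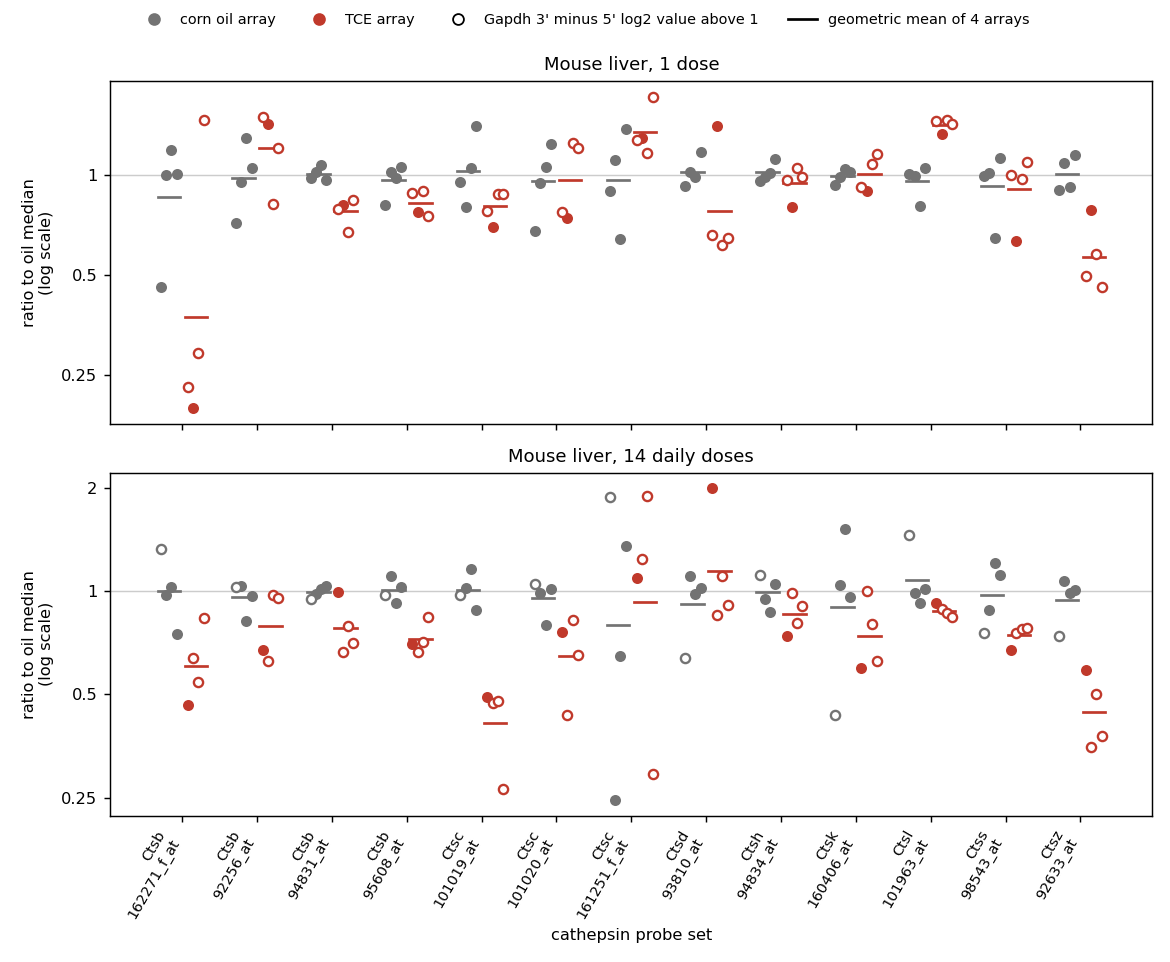
Ratio to the oil median on a log axis for the 13 mouse cathepsin probe sets, after 1 dose (top) and 14 daily doses (bottom), with 1 point for each array, open circles for arrays with a Gapdh 3′ minus 5′ value above 1 and lines at the geometric mean of 4 arrays. The 4 TCE arrays of Ctsc 101019_at and of Ctsz lie below their oil arrays after repeated doses, and those of Ctsl lie above theirs after a single dose.

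After 14 daily doses, Ctsc, Ctsz and Ctsb were lower in TCE-treated than in control mouse liver. They were called on 3 of the 13 member probe sets, all lower, where 10.7% of all mouse probe sets were called, 2.24% higher and 8.48% lower. The median log2 change of the members was -0.35, beside -0.15 for all probe sets, and 11 of the 13 lay below 0. On the 3 called probe sets, all 4 TCE arrays also lay below all 4 oil arrays, which held for 12.4% of all mouse probe sets.

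Ctsc showed the largest change of the called members. It encodes cathepsin C, or dipeptidyl peptidase I, which activates the serine proteases of immune-cell granules by removing a dipeptide. On probe set 101019_at the TCE ratios were 0.49, 0.473, 0.478 and 0.264, and the oil ratios 0.978, 1.022, 1.163 and 0.884. The TCE array without the Gapdh loss, array 1, read as arrays 2 and 3 did. Ctsc changed by -1.28 ± 0.22 (SE) on the log2 scale, a ratio of 0.411, with an adjusted p of 0.00395 by limma, and -1.26 with the Gapdh value as a covariate (adjusted p = 0.00693). Leaving out each array in turn kept the call, with adjusted p of at most 0.0143. Quantile normalization ended it, at -0.87 (adjusted p = 0.27), a setting under which 0.0564% of all mouse probe sets were called. Without the arrays above a Gapdh value of 1, which leaves TCE array 1 alone, the change was -1.05 (adjusted p = 0.21). Array 1 was the array of this group high in pancreas genes, and without it and the others Ctsc changed by -1.37 (adjusted p = 0.0193).

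The other 2 Ctsc probe sets did not show a change of that size. On 101020_at the TCE ratios were 0.76, 0.435, 0.823 and 0.651 and the oil ratios 1.053, 0.987, 0.798 and 1.013, a log2 change of -0.56 ± 0.25 (SE, adjusted p = 0.16 by limma). On 161251_f_at the oil arrays alone ran from 0.246 to 1.884, and the log2 change was 0.22 ± 0.60 (SE). Over the 16 mouse arrays 101019_at and 101020_at had a Pearson r of 0.63, and 161251_f_at had r of 0.15 and 0.16 with them.

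Ctsz was called after repeated doses as it was after a single dose. The TCE ratios were 0.588, 0.35, 0.502 and 0.378, and the oil ratios 0.74, 1.072, 0.991 and 1.009. The arrays with the Gapdh 5′ loss were the lowest of each group, TCE arrays 2, 3 and 4 and oil array 1. On the log2 scale the change was -1.09 ± 0.21 (SE), a ratio of 0.471, with an adjusted p of 0.00741 by limma, and -0.84 with the Gapdh value as a covariate (adjusted p = 0.00419). The call was kept with each array left out in turn (adjusted p of at most 0.0258) and ended by quantile normalization, at -0.70 (adjusted p = 0.275), and with TCE array 1 alone, at -0.80 (adjusted p = 0.178). Without the arrays high in pancreas genes Ctsz changed by -1.22 (adjusted p = 0.0173).

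Ctsb was called on 1 of its 4 probe sets, 95608_at. The TCE ratios were 0.701, 0.663, 0.71 and 0.841 and the oil ratios 0.973, 1.108, 0.924 and 1.027. On this probe set the log2 change was -0.47 ± 0.14 (SE), a ratio of 0.722, with an adjusted p of 0.04 by limma. Leaving out any of 7 of the 8 arrays ended the call, with adjusted p up to 0.107, and TCE array 4 was the exception. After centring the arrays on their medians the change was -0.31 (adjusted p = 0.147), and without the arrays high in pancreas genes -0.45 (adjusted p = 0.119). The other Ctsb probe sets also had changes below 0, at -0.35 (94831_at), -0.28 (92256_at) and -0.72 (162271_f_at). On 94831_at, 3 TCE arrays lay between 0.665 and 0.79 and array 1 read 0.997, and without that array the change was -0.47 (adjusted p = 0.0376 by limma).

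Ctsd gave no called change after repeated doses, with TCE ratios of 1.995, 0.85, 1.111 and 0.91 and oil ratios of 0.637, 1.107, 0.981 and 1.019. The highest value of all was again on the TCE array without the Gapdh loss, array 1, and the lowest on the oil array with it. The log2 change was 0.32 ± 0.30 (SE, adjusted p = 0.534 by limma). With the Gapdh value as a covariate it was 0.75, with an adjusted p of 0.00482. Array 1 was also the array of this group high in pancreas genes, and without it the change in Ctsd was 0.05 (adjusted p = 0.928). The call for Ctsd thus depended on whether the Gapdh value was in the model.

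Of the members not called after repeated doses, Ctsl read 0.923, 0.888, 0.862 and 0.842 on the TCE arrays and 1.461, 0.985, 0.923 and 1.015 on the oil arrays, a log2 change of -0.30 ± 0.15 (SE, adjusted p = 0.228 by limma). The TCE arrays thus sat at or below the oil arrays, where after a single dose they sat above them. Ctss changed by -0.39 ± 0.22 (SE), Ctsh by -0.21 ± 0.14 and Ctsk by -0.28 ± 0.29 on the log2 scale, with adjusted p of 0.267, 0.357 and 0.573.

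**Figure D2:**
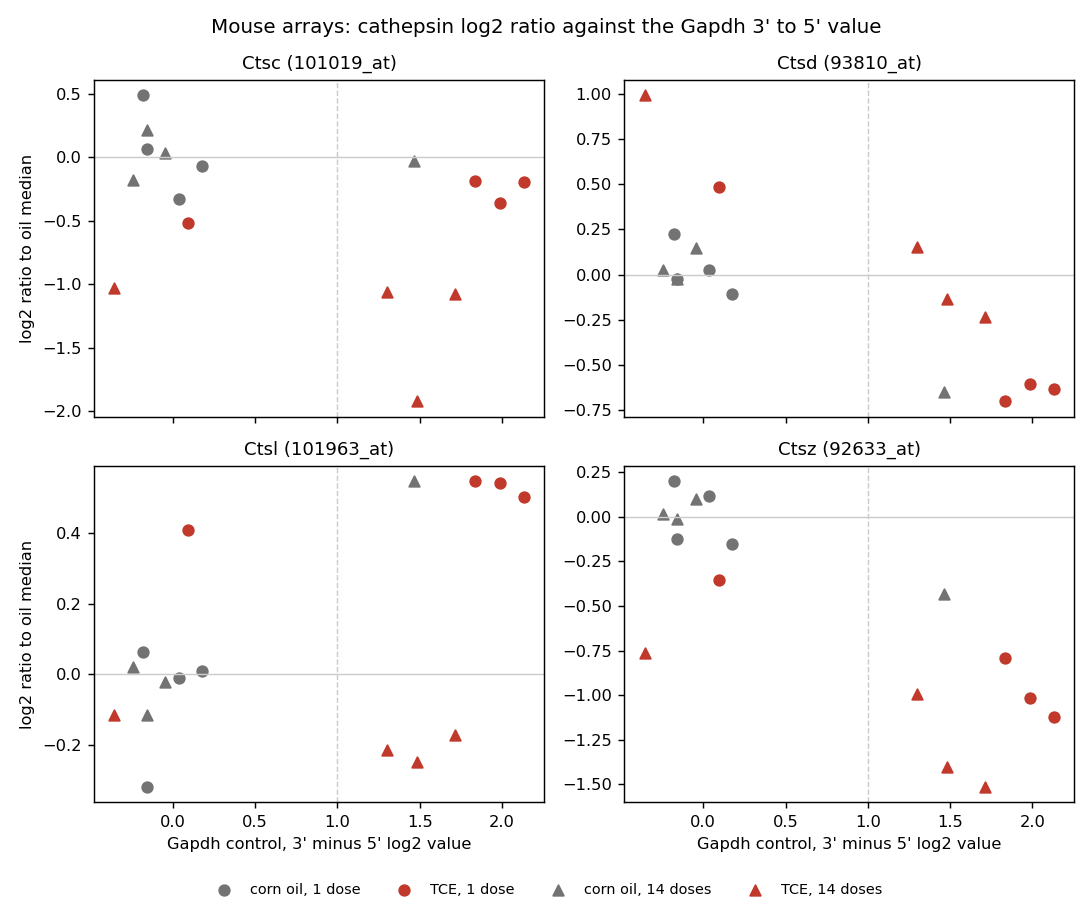
Log2 ratio to the oil median of 4 mouse cathepsin probe sets against the Gapdh 3′ minus 5′ log2 value of the same array, with 1 point for each of the 16 mouse arrays, circles for 1 dose, triangles for 14 doses, grey for corn oil and red for TCE. The 4 repeated-dose TCE arrays of Ctsc lie below the oil arrays on both sides of a Gapdh value of 1, whereas for Ctsd the TCE arrays beyond it lie below the TCE arrays short of it.

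The difference between the schedules was tested as the repeated-dose change minus the single-dose change. None of the 13 mouse probe sets was called by limma, 2 had an unadjusted p under 0.05, and 0.877% of all mouse probe sets were called. The 2 were Ctsl, at -0.86 ± 0.22 (SE, adjusted p = 0.0644), and Ctsc 101019_at, at -0.93 ± 0.31 (adjusted p = 0.125). The Ctsl difference passed the threshold on log2(ratio + 1), with an adjusted p of 0.0447, and after the noisiest 40% of probe sets were left out, with 0.0237. For Ctsz the difference was -0.26, with a 95% confidence interval of -0.89 to 0.38. Age differed between the schedules along with the number of doses, and each schedule was scaled to its own controls.

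In rat liver no cathepsin probe set was called after either schedule. By limma 0 of 10 passed after a single dose, where 1.72% of all rat probe sets did, and 0 of 10 after repeated doses, where 2.81% did. In both schedules 2 of the 10 had an unadjusted p under 0.05. The median log2 change of the members was -0.03 after a single dose, beside 0.14 for all rat probe sets, and 0.07 after repeated doses, beside 0.04.

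Ctsd stood lowest among the rat members. On rc_AI235585_s_at the single-dose TCE ratios were 0.538, 0.426, 0.806 and 0.24 and the oil ratios 0.754, 1.342, 0.779 and 1.221, so that TCE array 3 overlapped the oil group. After repeated doses the TCE ratios were 0.643, 0.388, 0.366 and 0.488 and the oil ratios 1.162, 1.015, 0.904 and 0.985, with no overlap, as on 4.79% of all rat probe sets. The log2 changes were -1.11 ± 0.32 (SE, adjusted p = 0.0909) and -1.14 ± 0.32 (adjusted p = 0.0685 by limma). These correspond to ratios of 0.463 and 0.454.

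The other rat Ctsd probe set, X54467_at, had single-dose TCE ratios of 0.687, 0.564, 0.683 and 0.251 against 0.738, 1.313, 0.84 and 1.16 in oil. The groups did not overlap, as on 3.72% of all rat probe sets, and the log2 change was -0.96 ± 0.31 (SE, adjusted p = 0.117 by limma). After repeated doses TCE read 0.683, 0.629, 0.891 and 0.617 and oil 1.259, 0.739, 0.928 and 1.072, which overlapped, with a change of -0.49 ± 0.31 (adjusted p = 0.416). TCE array 4 of the single-dose group, which carried the Gapdh 5′ loss, was the lowest on both probe sets. Without it the single-dose changes in Ctsd were -0.62 on X54467_at (adjusted p = 0.218) and -0.80 on rc_AI235585_s_at (adjusted p = 0.183). Both Ctsd probe sets passed after a single dose when the noisiest 40% of probe sets were left out (adjusted p of 0.0252 and 0.0397), and rc_AI235585_s_at passed after repeated doses (0.0185 by limma). In that setting 8.41% and 10.0% of the rat probe sets left were called after single and repeated doses. After a single dose rc_AI235585_s_at also passed without TCE array 3, with a change of -1.38 (adjusted p = 0.046).

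Rat Ctsl on rc_AI176595_s_at read 1.51, 1.339, 1.249 and 1.512 on the repeated-dose TCE arrays and 0.993, 1.117, 0.943 and 1.007 on the oil arrays. All TCE arrays lay above all oil arrays, as was the case for 7.52% of all rat probe sets. The log2 change was 0.46 ± 0.17 (SE), and the limma test gave an adjusted p of 0.161. The second Ctsl probe set, S85184_g_at, did not show it, with TCE ratios of 0.976, 1.045, 1.063 and 1.01 and a change of 0.06 ± 0.20. After a single dose the changes were 0.21 and 0.00 on these probe sets.

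Rat Ctsc on D90404_g_at read 1.28, 1.277, 1.523 and 1.467 on the single-dose TCE arrays and 1.213, 1.052, 0.948 and 0.785 on the oil arrays, without overlap, as on 8.79% of all rat probe sets. The log2 change was 0.49 ± 0.28 (SE, adjusted p = 0.362 by limma), and on D90404_at, where the groups overlapped, 0.39 ± 0.39. After repeated doses TCE arrays 1, 2 and 4 read 1.405, 1.3 and 1.341 and array 3 read 0.58, with a change of 0.10 ± 0.28. Array 3 was also low on D90404_at, at 0.41, and carried the Gapdh 5′ loss. Without it the repeated-dose changes in Ctsc were 0.41 on D90404_g_at (adjusted p = 0.347) and 0.52 on D90404_at (adjusted p = 0.37).

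The other 4 rat genes were measured by 1 probe set each, and none was called. Ctsb changed by -0.36 ± 0.18 (SE) on the log2 scale after a single dose and by -0.18 ± 0.18 after repeated doses. Ctsk changed by -0.06 and 0.52, with ratios after repeated doses from 1.345 to 2.37 on the TCE arrays and from 0.794 to 2.081 on the oil arrays. Ctss changed by -0.26 and -0.13. Ctsh changed by 0.09 and 0.32, the latter beside a repeated-dose oil array 3 of 0.297, where the other oil arrays lay between 0.997 and 1.025. Without that array the repeated-dose change in Ctsh was -0.12, and it was not called either.

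The repeated-dose change minus the single-dose change was called by limma for none of the 10 rat probe sets and for 0% of all rat probe sets, and none of the 10 had an unadjusted p under 0.05. The differences ran from -0.38 (Ctsc D90404_g_at) to 0.58 (Ctsk).

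**Figure D3:**
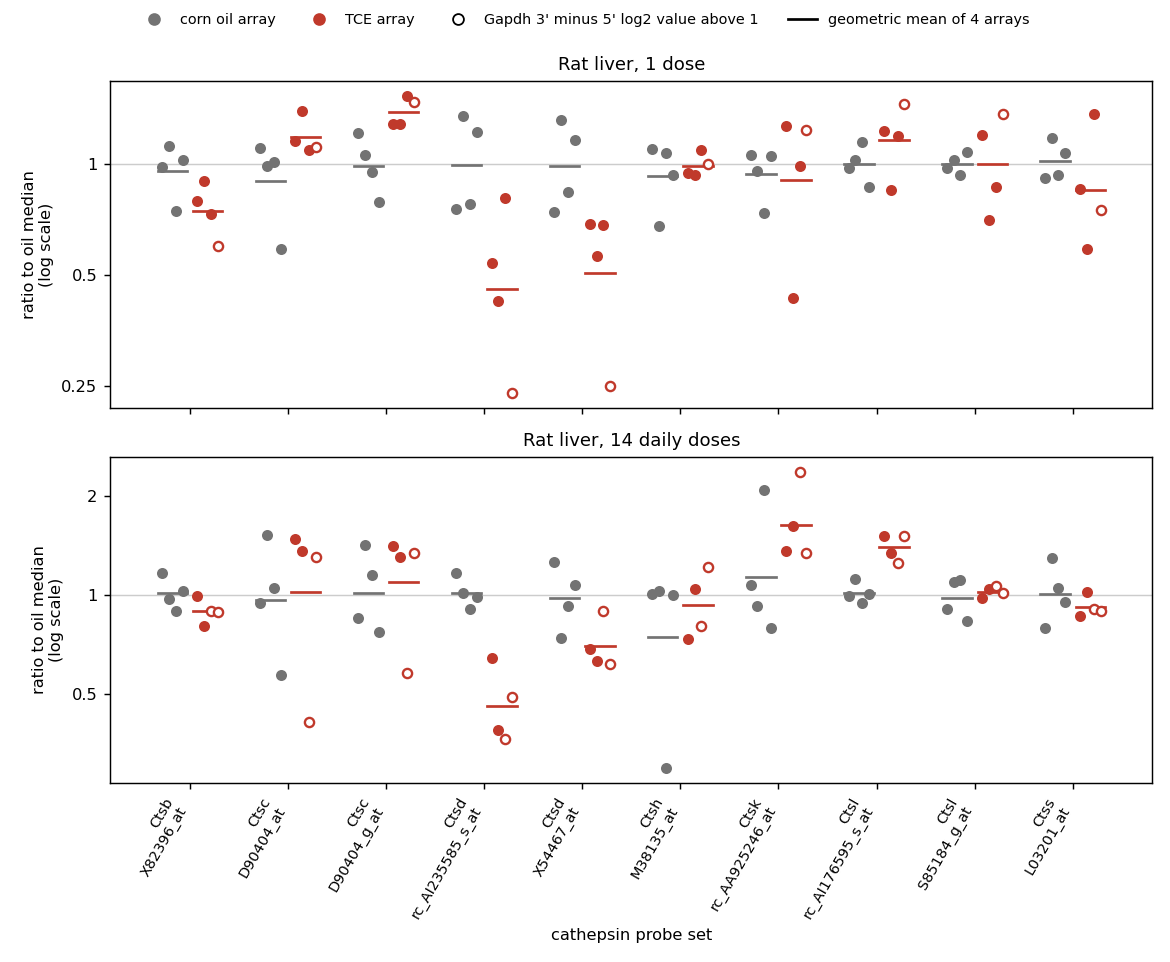
Ratio to the oil median on a log axis for the 10 rat cathepsin probe sets, after 1 dose (top) and 14 daily doses (bottom), with 1 point for each array, open circles for arrays with a Gapdh 3′ minus 5′ value above 1 and lines at the geometric mean of 4 arrays. The TCE arrays of Ctsd rc_AI235585_s_at lie between 0.366 and 0.643 after repeated doses, below all oil arrays, and those of Ctsl rc_AI176595_s_at lie above theirs.

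The species were compared as the mouse change minus the rat change, over the 3056 genes found on both arrays by symbol, with the probe set of smallest within-group SD for each gene. Ctsc and Ctsl differed between mouse and rat after repeated doses, and no member was called after a single dose. After repeated doses 2 of 7 members were called, both more negative in mouse, where 10.5% of all genes were called and 8.51% in that direction. The median difference of the members was -0.53, beside -0.23 for all genes, and 6 of 7 lay below 0.

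For Ctsc the repeated-dose change was -1.28 in mouse and 0.10 in rat. The difference of -1.39 ± 0.35 (SE) had a 95% confidence interval of -2.11 to -0.66 and an adjusted p of 0.0113 by limma. Without rat TCE array 3, low on Ctsc and with the Gapdh 5′ loss, it was -1.69 (adjusted p = 0.000873). It was -0.63 (adjusted p = 0.389) when all probe sets of a gene were averaged, which brings in the mouse probe sets 101020_at and 161251_f_at.

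For Ctsl the change was -0.30 in mouse, where it was not called, and 0.46 in rat, where it was not called either. The difference of -0.76 ± 0.22 (SE) had a 95% confidence interval of -1.21 to -0.31 and an adjusted p of 0.0235 by limma. Without mouse oil array 1, which read 1.461 and carried the Gapdh 5′ loss, it was -0.61 (adjusted p = 0.0576). Averaged over probe sets it was -0.56 (adjusted p = 0.117), and after centring on array medians also -0.56 (adjusted p = 0.121).

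For Ctsd the mouse change minus the rat change was 0.56 (95% confidence interval -0.33 to 1.46) after a single dose and 0.81 (-0.08 to 1.71) after repeated doses, neither called. With the Gapdh value as a covariate the single-dose difference was 1.32 (adjusted p = 0.0394 by limma), and without rat TCE array 4 it was 0.23 (adjusted p = 0.791). Without the arrays high in pancreas genes it was 0.93 (adjusted p = 0.308), and the repeated-dose difference 0.55 (adjusted p = 0.461). Without the arrays above a Gapdh value of 1 the repeated-dose difference was 1.53 (adjusted p = 0.0317), a fit that leaves 1 mouse TCE array per schedule and assumes that it varies like the other groups. Ctsb differed by 0.13 and -0.29 after the single and repeated doses, Ctsh by -0.20 and -0.53 (-0.09 without rat oil array 3), Ctsk by 0.07 and -0.81 and Ctss by 0.23 and -0.25, none of them called. After a single dose limma called 0 of 7 members and 4.22% of all genes, and 1 member, Ctsc at -0.84, had an unadjusted p under 0.05.

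**Figure D4:**
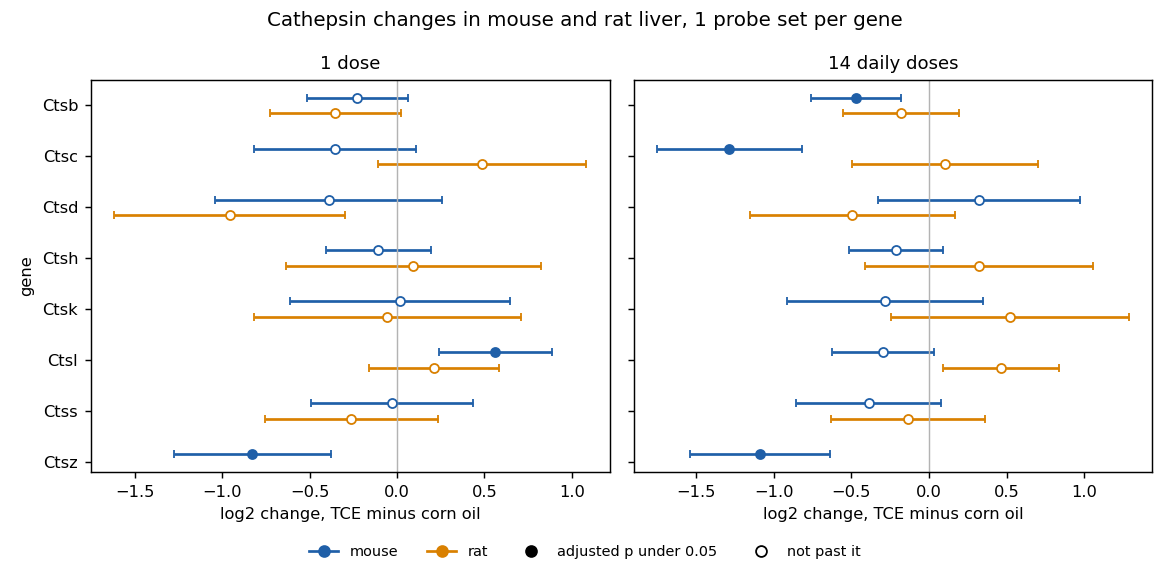
Log2 change, TCE minus corn oil, of each cathepsin gene in mouse (blue) and rat (orange) after 1 dose (left) and 14 daily doses (right), from 1 probe set per gene, with bars for the 95% confidence interval and filled circles for an adjusted p under 0.05. Ctsc after repeated doses lies at -1.28 in mouse and 0.10 in rat, and Ctsz has no rat value.

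The members did not share 1 profile. Over the 16 mouse arrays, Pearson r between probe sets of different member genes ran from -0.66 to 0.83 over 69 pairs, with a median of 0.20. In rat it ran from -0.63 to 0.81 over 42 pairs, with a median of -0.10. These arrays share treatment groups, scaling and the Gapdh loss, so the values are descriptive. Probe sets of 1 gene agreed best for rat Ctsc, at 0.91, and rat Ctsd, at 0.83, while rat Ctsl had 0.44 and the 4 mouse Ctsb probe sets ran from -0.07 to 0.55.

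The genes with profiles most like the members, by Pearson r over the 16 arrays of a species, were taken over all named genes outside the list. The mean of the mouse members was closest to Sf3a3 (r = 0.94), Med1 (0.94), Selenok (0.93), Mttp (0.93) and Ddx3x (0.92). Ctsc 101019_at was closest to Med1 (0.96), Ddc (0.93) and Taf15 (0.93), and Ctsz to F10 (0.96), Atf4 (0.96) and Gpld1 (0.96). Ctsl was closest to Ubxn4 (0.95), Arcn1 (0.95) and Ugt2b34 (0.93), and Ctsb 95608_at to Akap1 (0.92), Adk (0.92) and Gstz1 (0.91). The mean of the rat members was closest to P4hb (0.82), Arhgap1, Vsir, Ldhb and Spink1.

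The other cathepsins and the cystatin inhibitors, like the lists below, were read with 1 probe set per gene, that of smallest within-group SD. The shares over all probe sets include noisier ones, so lists and shares are not like for like. With the noisiest 40% of probe sets left out, 20.4% and 23.3% of mouse probe sets were called after single and repeated doses. In rat these shares were 8.41% and 10.0%. In mouse liver after a single dose, 2 of 8 other cathepsins fell, Ctse by 1.27 and Ctsf by 0.98 on the log2 scale (adjusted p of 0.00219 and 0.0369 by limma), and Ctse was read by a probe set with the family suffix. After repeated doses 2 of 8 fell, Lgmn, the asparagine-specific protease that processes cathepsin precursors, at -0.89 ± 0.15 (SE, adjusted p = 0.00388), and Ctsa, the protective protein of lysosomal glycosidases, at -0.38 ± 0.11 (adjusted p = 0.035). Over all mouse probe sets 8.30% and 10.7% were called. The list medians were -0.32 and -0.17, beside -0.09 and -0.15 for all probe sets. Of 5 inhibitors, Cstb, the cytosolic cystatin B, rose after a single dose (0.77 ± 0.15, adjusted p = 0.00795), and Kng1, a plasma kininogen with cystatin domains, fell after repeated doses (-0.59 ± 0.17, adjusted p = 0.0433). In rat liver neither of the 2 other cathepsins measured was called by limma or had an unadjusted p under 0.05, and of 4 inhibitors Cst3, the secreted cystatin C, fell after a single dose (-0.82 ± 0.20, adjusted p = 0.0499). Over all rat probe sets 1.72% were called after a single dose and 2.81% after repeated doses.

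Among the other enzymes of the lysosome, 6 of 24 mouse hydrolases fell and none rose after repeated doses. Of all mouse probe sets 10.7% were called, 8.48% lower and 2.24% higher. With the noisiest 40% of probe sets left out, 23.3% were called in either direction. The list median was -0.24, beside -0.15 for all probe sets. The hydrolases that fell included the mannosidase Man2b1 (-0.82 ± 0.14 SE), the ceramidase Asah1 (-0.74 ± 0.15), the galactosidase Gla (-2.25 ± 0.53) and the phosphatase Acp5 (-0.79 ± 0.19), with adjusted p from 0.00462 to 0.0183 by limma. After a single dose 2 rose, the lipase Lipa (0.88) and the hyaluronidase Hyal2 (0.52), and Acp5 fell (-0.67), where 8.30% of all probe sets were called, and the list median was -0.29 beside -0.09. In rat liver limma called none of 12 hydrolases after either schedule. Without adjustment 4 had a p under 0.05 after a single dose and 1 after repeated doses, and the medians were -0.10 and 0.17.

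Of 12 mouse lysosomal membrane proteins and cofactors, 2 fell after a single dose and 4 after repeated doses, and none rose. Of all mouse probe sets 4.14% were lower and 4.16% higher after a single dose, and 8.48% lower and 2.24% higher after repeated doses. Gm2a, the activator protein for ganglioside breakdown, fell after both schedules (-1.25 ± 0.16 SE and -0.91 ± 0.16, adjusted p of 0.000682 and 0.00537 by limma). Lamp2, a major glycoprotein of the lysosomal membrane, also fell after both (-1.03 and -0.63). Laptm4a (-0.95) and Npc1, the cholesterol exporter of the lysosome (-0.65), fell after repeated doses. The 7 such genes on the rat array gave no limma call and no unadjusted p under 0.05 after either schedule.

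The vacuolar proton pump, which acidifies the lysosome, had 2 of 14 mouse genes higher after a single dose, Atp6v0d1 (0.65) and Atp6ap1 (0.58), with a list median of 0.31. After repeated doses Atp6v0d1 was higher (0.42) and Atp6v1e1 lower (-0.68), with a median of -0.21. Of 9 sorting genes Gga2 (1.12) and Vps35 (0.75), which carry and recycle the sorting receptors, rose after a single dose, and limma called none after repeated doses, when 1 had an unadjusted p under 0.05. Of 12 autophagy genes Gabarap fell after a single dose (-1.26) and Atg5 after repeated doses (-0.55). Over all mouse probe sets 8.30% were called after a single dose and 10.7% after repeated doses. In rat liver limma called 1 gene among these lists, the retromer subunit Vps26a after a single dose (1.08, adjusted p = 0.0472). Over all rat probe sets 1.72% were called after a single dose and 2.81% after repeated doses. Of 8 proton pump, 4 sorting and 4 autophagy genes, 0, 2 and 1 had an unadjusted p under 0.05 after a single dose and 1, 2 and 0 after repeated doses.

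**Figure D5:**
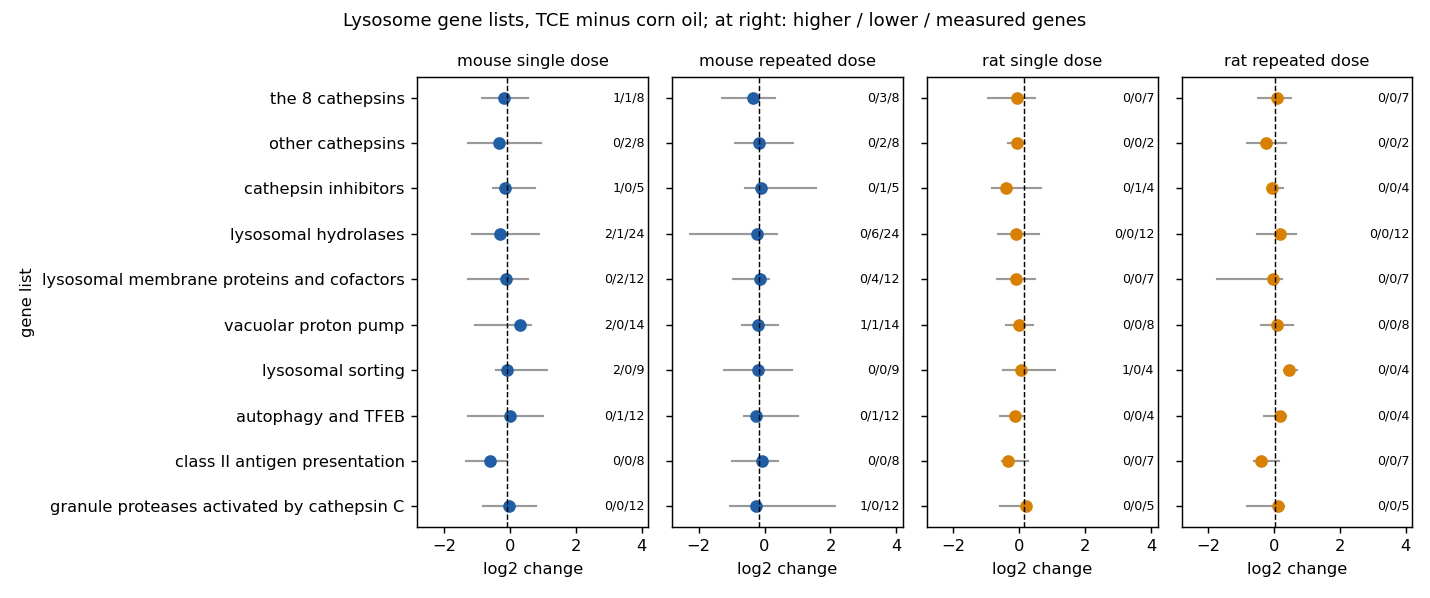
Median log2 change, TCE minus corn oil (point), with the lowest and highest gene (line), for the 8 cathepsins and 9 further gene lists in each comparison, with the numbers of higher, lower and measured genes at the right and a dashed line at the median of all probe sets. Called genes in these lists lie mostly in the mouse panels, with 6 of 24 hydrolases lower after repeated doses. Over all probe sets, 8.30% and 10.7% were called in mouse and 1.72% and 2.81% in rat, after single and repeated doses. Each listed gene was read by its probe set of smallest within-group SD, whereas these shares include noisier probe sets.

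Substrates and partners of single members were read the same way. No gene of class II antigen presentation, the pathway of cathepsin S, was called in any of the 4 comparisons by limma. In mouse all 8 lay below 0 after a single dose, with a median of -0.61 and 4 at an unadjusted p under 0.05, and 5 of 8 after repeated doses, with a median of -0.07 and 1 at that p. In rat the medians of 7 genes were -0.33 and -0.40, with none at that p. Of 12 mouse granule proteases activated by cathepsin C, limma called none after a single dose, when 2 had an unadjusted p under 0.05, and Mcpt8, a basophil protease, rose after repeated doses (2.15 ± 0.40 SE, adjusted p = 0.00605). After repeated doses 10.7% of all mouse probe sets were called, 2.24% higher. The same list of 5 rat genes gave no call after either schedule, with an unadjusted p under 0.05 for 0 and 1 of them.

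Markers of Kupffer cells and macrophages, cells that express many of the members, were also read, and some were lower beside the mouse repeated-dose results. Of 15 markers, 14 lay below 0, where 39.0% of all mouse probe sets lay above it, with a median of -0.55 beside -0.15, and Csf1r (-0.63, adjusted p = 0.0206) and C1qa (-0.99, adjusted p = 0.0428 by limma) fell, where 10.7% of all probe sets were called and 8.48% lower. The mean log2 ratio over the 15 markers ran from -0.79 to -0.55 on the TCE arrays and from -0.63 to 0.24 on the oil arrays. After a single dose no marker was called by limma, 7 had an unadjusted p under 0.05, the median was -0.28, and the array means ran from -0.45 to -0.32 in TCE and from -0.29 to 0.06 in oil. In rat limma called none of 8 markers after either schedule, 3 had an unadjusted p under 0.05 each time, and the medians were -0.36 and -0.35. Ratios hold no zero level, so which markers were near background is not known, and the part of macrophage number in the cathepsin values was not tested.

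Of 11 hepatocyte markers 2 fell in mouse liver after each schedule, Apoa2 (-0.71) and the asialoglycoprotein receptor subunit Asgr2 (-1.44) after a single dose, and Asgr2 (-0.98) and Tat (-0.59) after repeated doses. Apoa2 was read by a probe set with the family suffix. Over all mouse probe sets 8.30% and 10.7% were called, 4.14% and 8.48% lower. All 11 markers lay below 0 both times, where 42.6% and 39.0% of all mouse probe sets lay above it, with medians of -0.31 and -0.40 beside -0.09 and -0.15. In rat limma called none of 11, with 3 and 1 at an unadjusted p under 0.05 and medians of -0.19 and -0.03. Markers of sinusoidal endothelium, stellate cells, neutrophils, T and NK cells, B cells, bile duct cells and exocrine pancreas gave between 0 and 2 calls per list in each comparison. The calls were Sparc in mouse after a single dose (-1.09), Tek (-1.03), Col1a2 (1.14) and Sparc (-0.79) in mouse after repeated doses, and Pecam1 (-1.43) and Sparc (1.21) in rat after repeated doses. They stand beside the mouse shares of 8.30% and 10.7% given above. Over all rat probe sets 1.72% were called after a single dose and 2.81% after repeated doses.

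Of the exocrine pancreas genes limma called none in any of the 4 comparisons, and none of them had an unadjusted p under 0.05. All 11 lay below 0 in rat after a single dose, with a median of -0.91, where oil array 3 was the array high in them. The mouse medians were 0.67 and 0.52. The part of these genes in the cathepsin values was not tested.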

How the data were processed

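Liver RNA from 32 samples was hybridised to 1 mouse and 1 rat Affymetrix array design. The authors made signals with MAS5, per the submitters' processing notes, which give no version. The deposited values are a ratio: tested on the files, the median of each 4 corn oil arrays is 1, so signal level is unknown. Precision is limited by how many arrays there were. Control probe sets (66 mouse, 59 rat) were left out; 2 mouse and 11 rat values were missing.

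Log2 ratios were fitted with limma 3.58.1 (R 4.3.3), as group means, using the 16 arrays from each species, or all 32 for species differences. Intervals are 95% confidence intervals. The code was tested on simulated data. The labels do not say that replicate numbers pair samples, so the main fit used no pairing. Correlations of same-numbered arrays ran from -0.17 to 0.08, which cannot settle whether they do.

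The members and lists were chosen with earlier results of these data known. All member probe sets were named. From each other list, up to 4 called genes by smallest adjusted p were named, or up to 2 by smallest p. The most similar genes were the 5 of highest r with the members' mean, or 3 for each called probe set. Alternatives were other scalings, log2(ratio + 1), a noise filter, a replicate block, the Gapdh value, fewer groups, averaged probe sets and each array left out. Leaving out arrays with a mean log2 ratio above 2 over the pancreas genes was added after seeing the data.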

Additional observations from a re-analysis of the deposited data

Results flagged for a closer look

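In 5 of the 92 groups of 4 arrays examined, 1 array stood apart from the other 3 by Dixon's criterion at the 95% level, and chance alone gives about 1 in 20. In mouse repeated-dose TCE, array 4 read 0.264 for Ctsc 101019_at, and the others 0.473 to 0.49. In mouse single-dose TCE, array 2 read 1.403 for Ctsd 93810_at, and the others 0.614 to 0.656. It was the array of that group without the Gapdh 5′ loss. In rat repeated-dose TCE, array 3 read 0.41 for Ctsc D90404_at, with the others at 1.307 to 1.483, and 0.58 for D90404_g_at, with the others at 1.3 to 1.405. In rat repeated-dose oil, array 3 read 0.297 for Ctsh M38135_at, and the others 0.997 to 1.025.

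The response to TCE differed between the species for 2 of 7 members after repeated doses, by a test of the difference itself. Of all genes 10.5% were called, 8.51% in the same direction. Both calls ended after quantile normalization, with only the groups compared and with averaged probe sets. After repeated doses Ctsl was called in neither species alone. The mouse change minus the rat change was -1.39 for Ctsc and -0.76 for Ctsl on the log2 scale.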

How the results depend on the processing

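Over 1689 alternative values of the 83 member results, 1625 kept their side of the threshold and, where called, their direction, 52 lost the call, 12 gained one and 0 reversed; in 78 the sign of an uncalled value differed. After quantile normalization the called members went to 0 in mouse after a single dose (main 2), to 0 in mouse after repeated doses (main 3) and to 0 for the repeated-dose species difference (main 2), while the called share of all mouse probe sets fell to 0.475% and 0.0564%. The mouse single-dose count was also 0 with the replicate block, with the Gapdh value as a covariate and with only the groups compared. In these settings 5.84%, 2.24% and 6.31% of all mouse probe sets were called. Leaving out arrays above a Gapdh value of 1 leaves 1 mouse TCE array per schedule, so counts of calls there cannot be read. The count of the repeated-dose species difference was 1 after centring, and 0 with only the groups compared or with averaged probe sets. With the Gapdh covariate the single-dose species count was 1 (main 0). Without the noisiest 40% of probe sets the counts were 2 and 1 in rat after single and repeated doses (main 0 for both). In that setting 8.41% and 10.0% of the rat probe sets left were called. It also gave 1 for the mouse schedule difference (main 0). On log2(ratio + 1) that difference gave 1 as well, where 2.46% of all mouse probe sets were called. With each array left out, counts ran from 0 to 2 in mouse after a single dose, 2 to 3 after repeated doses, 0 to 1 in rat after a single dose and 1 to 2 for the repeated-dose species difference. The called share of all mouse probe sets then ran from 4.18% to 9.56% after a single dose and from 5.53% to 10.2% after repeated doses. In rat after a single dose it ran from 0.252% to 1.46%. Without the 5 arrays high in pancreas genes, an alternative chosen after seeing the data, the mouse single-dose count was 1, Ctsb 162271_f_at, and the other counts were within 1.5 times of the main ones. In that setting 1.06% of all mouse probe sets were called after a single dose. The causes were not tested.

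The replicate block was fitted although the labels do not say that the numbers pair samples. It gave 0 and 2 called members in mouse after single and repeated doses, where 5.84% and 7.99% of all mouse probe sets were called. Of 16 arrays 5 correlated best with their own number, with 3 of 4 in mouse after a single dose. The median of all probe sets moved by -0.15 in mouse after repeated doses and by 0.14 in rat after a single dose. After centring, the called members were 2 in mouse after repeated doses (main 3) and 0 in rat after a single dose (main 0). The called shares of all probe sets were then 7.90% and 2.11%. Ratios hide how far a probe set lies above background, which limits all values.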
